A study of Homo sapiens with 18 samples.

Results

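The genes described here are 10 components of the integrated stress response: the eIF2alpha kinases EIF2AK1 and EIF2AK4, the transcription factor ATF4, its bZIP relatives ATF3, ATF5, DDIT3, CEBPB and CEBPG, and the feedback genes TRIB3 and PPP1R15A. They were taken by symbol for their roles in the pathway, with earlier results of these data known. All 10 were found among the 27781 gene rows of the count table and passed the filter on low counts. Levels were compared between K562 cells given an antisense gapmer against the backsplice junction of circPCMTD1 and K562 cells given scrambled gapmers, each harvested 48 hours after transfection. K562 is a human leukemia line with the BCR-ABL1 fusion, and a gapmer is a short oligonucleotide that directs RNase H to cut the RNA it pairs with. The sample descriptions speak of siRNA, and the protocols of gapmers are followed here. Both groups received a transfection and no untransfected cells are compared here, so neither group shows the resting level of these genes. Each group held 3 biological replicates, and each replicate had 3 technical libraries, which were summed.

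The integrated stress response starts when kinases phosphorylate the alpha subunit of the initiation factor eIF2. EIF2AK1 (HRI) senses low haem and mitochondrial stress and is best known from red cell precursors, EIF2AK4 (GCN2) senses amino acid shortage, EIF2AK2 (PKR) senses double-stranded RNA and EIF2AK3 (PERK) senses stress in the endoplasmic reticulum. Phosphorylated eIF2 slows general translation but favours translation of a few mRNAs, among them ATF4, whose protein then pairs with other bZIP factors and switches on genes for amino acid supply and for feedback. Translation and phosphorylation are not read by RNA counts, and all values below are RNA levels.

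Library totals lay between 19118533 and 29432699 counts, and sums per replicate between 63851576 and 76087774. PCMTD1, the host gene of the targeted circle, averaged 12.3 ± 0.515 CPM in knockdown cells and 20.6 ± 1.13 CPM in scrambled cells (SD, n = 3 each), a count that mixes linear and circular RNA. All 10 K562 markers examined, globin and erythroid factor genes among them, were at 1 CPM or more, and their summed level was 11070 to 11820 CPM in knockdown samples and 10720 to 10900 CPM in scrambled samples. The labels call the cells lymphoblasts, but of 7 lymphoid markers only CD3D reached 1 CPM. Summed B lymphoid markers stood at 0.942 to 1.07 CPM in knockdown and 0.463 to 0.595 CPM in scrambled samples, with MS4A1 at 0 in both. Summed T lymphoid markers stood at 6.45 to 6.58 CPM in knockdown and 4.42 to 4.93 CPM in scrambled samples, and 4 myeloid markers at 0.432 to 0.614 CPM in knockdown and 0.662 to 0.967 CPM in scrambled samples. The part of these differences in the results was not tested. Knockdown libraries 3_2 and 3_3 stood apart by GC content: the tenth of genes with the highest GC content lay at -0.13 and -0.15 (mean log2 deviation from the knockdown mean) in them, against -0.01 to 0.07 in the other 7 knockdown libraries.

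The factors and feedback genes were lower in knockdown cells, and the kinase genes did not pass the test. By the quasi-likelihood test of edgeR, with Benjamini-Hochberg adjustment and a threshold of 0.05, 8 of the 10 genes were lowered and 0 were raised, where 7.49% of the 15678 genes tested were lowered and 11.1% were raised. The 0 raised genes were also 0 by DESeq2 and at an unadjusted p below 0.05 in edgeR. The 10 genes had a median log2 fold change of -0.26, against 0.00 over all genes tested. They were chosen with earlier results of these data known, so their share only describes them beside all genes. In 9 of the 10 all 3 knockdown samples lay below all 3 scrambled samples, as in 16.5% of genes tested. Ranges of single libraries, given below for some genes, are of technical libraries and not of replicates. The share of all genes separated in single libraries was not counted. RNA here comes from whole cultures, so fewer cells expressing a gene and less RNA per cell cannot be told apart. The labels name the replicates biological without saying how they were kept separate, and p-values measure only the spread between these samples.

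**Figure D1:**
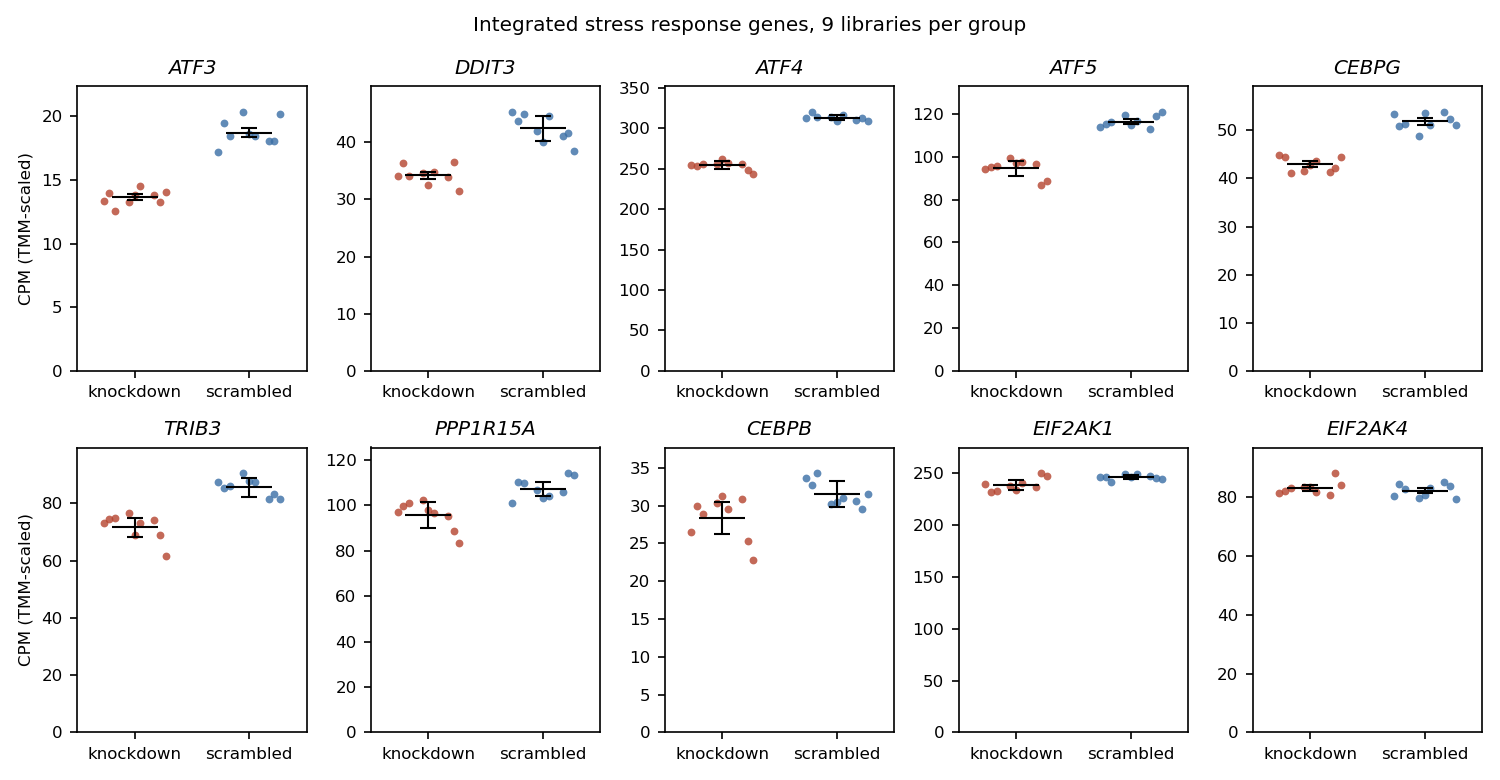
Level of each gene in CPM (linear axis from 0) in every library, with knockdown libraries on the left and scrambled libraries on the right of each panel. Points are the 9 libraries of a group, set side by side by replicate. Bars give the mean and SD of the 3 summed replicates. In the panels of ATF3, DDIT3, ATF4, ATF5, CEBPG and TRIB3 all 9 knockdown points lie below all 9 scrambled points. The 9 points are 3 technical libraries of each of 3 replicates, and the share of all genes separated in this way was not counted.

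ATF4 itself, the central factor, had 254.6, 258.4 and 248.8 CPM in the 3 knockdown samples, against 316.1, 312.6 and 309.9 CPM in the 3 scrambled samples. The groups did not overlap, and the 9 knockdown libraries, at 243.6 to 261.9 CPM, also lay below the 9 scrambled libraries, at 308.9 to 320.0 CPM. The fitted level fell by 18.8% (log2 fold change -0.30, SE 0.025, adjusted p = 1.74e-08 in edgeR). Its SD between replicate means within a group was 0.020 on the log2 scale, far less than the difference, and its SD between technical libraries was 0.019. It lies on chromosome 22 (39519695 to 39522685, plus strand; positions of genes are from GENCODE 29 on GRCh38). GENCODE 29 names 4 processed copies of ATF4 elsewhere in the genome, and none of the 4 has a row under its name in the count table. How reads that match both ATF4 and a copy were handled is uncertain.

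ATF3 (chromosome 1, 212565334 to 212620777, plus strand), a bZIP factor that ATF4 induces and that is also an early response gene, had the lowest CPM of the 10 genes and the largest fall. It had 13.4, 13.9 and 13.7 CPM in knockdown samples (937, 888 and 889 counts), against 18.4, 19.1 and 18.7 CPM in scrambled samples (1388, 1347 and 1258 counts). No library of either group reached into the range of the other, since knockdown libraries ended at 14.6 CPM and scrambled libraries began at 17.2 CPM. ATF3 fell by 27.1% (log2 fold change -0.46, SE 0.046, adjusted p = 3.61e-07 in edgeR). Counted from the lowest, its fold change was number 352 of the 15678 tested.

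ATF5 (chromosome 19, 49928702 to 49933935, plus strand), the closest relative of ATF4 among the 10 and likewise known for regulation at the level of translation, had 95.1, 97.9 and 90.7 CPM in knockdown samples, against 115.1, 116.9 and 117.2 CPM in scrambled samples. The groups were separate, with knockdown replicate 3 lowest. Its log2 fold change was -0.30 (SE 0.032, adjusted p = 7.32e-07 in edgeR), the same to 2 decimals as that of ATF4. The exons of ATF5 share 626 bases with NUP62 on the opposite strand, and the strand setting of the counting is not given in the sources used here. NUP62 averaged 182 ± 2.87 CPM in knockdown and 183 ± 2.58 CPM in scrambled cells (SD, n = 3), with a log2 fold change of -0.01 that did not pass.

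DDIT3 (chromosome 12, 57516588 to 57521737, minus strand) encodes CHOP, a C/EBP-family factor that pairs with ATF4 and acts in cell death under prolonged stress. It had 34.9, 33.8 and 33.8 CPM in knockdown samples, against 44.7, 42.3 and 40.4 CPM in scrambled samples, where replicate 3 was lowest. The ranges were well apart, and the log2 fold change was -0.31 (SE 0.040, adjusted p = 7.55e-06 in edgeR). DDIT3 shares 355 exon bases with MARS1, a methionyl-tRNA synthetase gene on the opposite strand, and 58 with MBD6, and these were lowered too, with log2 fold changes of -0.17 and -0.18. On its own strand DDIT3 shares 105 exon bases with AC022506.1, a protein-coding gene in GENCODE 29 for which no value is used here. How reads in shared bases were divided was not tested.

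CEBPG (chromosome 19, 33373330 to 33382686, plus strand) and CEBPB (chromosome 20, 50190734 to 50192689, plus strand) encode C/EBP factors that pair with ATF4 at composite sites. CEBPG had 43.7, 42.6 and 42.7 CPM in knockdown samples, against 52.1, 51.1 and 52.4 CPM in scrambled samples, and its log2 fold change was -0.27 (SE 0.033, adjusted p = 5.29e-06 in edgeR). CEBPB had 28.5, 30.4 and 26.3 CPM in knockdown samples, against 33.6, 30.5 and 30.5 CPM in scrambled samples. The CEBPG groups were far apart, whereas the highest knockdown sample of CEBPB lay just under the lowest scrambled sample, and 5 of its 9 knockdown libraries lay below all scrambled libraries. CEBPB passed with a log2 fold change of -0.15 (SE 0.049, adjusted p = 0.0329 in edgeR), the highest adjusted p among the 8 genes called. CEBPB no longer passed when knockdown libraries 3_2 and 3_3 were omitted (log2 fold change -0.09, adjusted p = 0.0516), when scrambled replicate 1 was (-0.11, 0.232), or from the first technical libraries alone (-0.11, 0.229). It shares 231 exon bases with CEBPB-AS1, which did not pass at 1.53 ± 0.123 CPM in knockdown and 1.43 ± 0.133 CPM in scrambled cells.

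The 2 feedback genes were both lowered. TRIB3 (chromosome 20, 362835 to 397559, plus strand), a pseudokinase gene that ATF4 and CHOP induce and whose protein holds ATF4 in check, had 74.2, 72.7 and 67.9 CPM in knockdown samples, against 86.4, 88.4 and 82.0 CPM in scrambled samples. Its groups were separate in all 9 libraries a side, and its log2 fold change was -0.26 (SE 0.037, adjusted p = 3.44e-05 in edgeR). PPP1R15A (chromosome 19, 48872392 to 48876057, plus strand) encodes GADD34, the inducible subunit that brings protein phosphatase 1 to eIF2alpha and so ends the response. It had 99.4, 99.0 and 89.0 CPM in knockdown samples, against 106.8, 104.7 and 110.8 CPM in scrambled samples, and a log2 fold change of -0.16 (SE 0.038, adjusted p = 0.00361 in edgeR). Its knockdown replicate 3 was clearly the lowest, and from the first technical libraries alone the log2 fold change was -0.09 (adjusted p = 0.108). The difference between TRIB3 and PPP1R15A was not tested.

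The kinase genes had smaller differences. EIF2AK1 (chromosome 7, 6022244 to 6059230, minus strand) had 235.1, 237.3 and 244.5 CPM in knockdown samples, against 245.7, 248.3 and 245.6 CPM in scrambled samples. These samples did not overlap, but the highest knockdown sample came close to the lowest scrambled sample, and the log2 fold change of -0.04 did not pass (SE 0.026, adjusted p = 0.252 in edgeR). Its 95% interval ran from -0.10 to 0.01. EIF2AK1 passed as lowered in 6 of the other settings, at a log2 fold change of -0.06 when knockdown libraries 3_2 and 3_3 were omitted (adjusted p = 0.0013), -0.06 when knockdown replicate 3 was (0.00265) and -0.04 after GC correction (0.041). It shares 532 exon bases with AIMP2 on the opposite strand, which was lowered with a log2 fold change of -0.11.

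EIF2AK4 (chromosome 15, 39934146 to 40035591, plus strand) had 82.1, 82.8 and 84.0 CPM in knockdown samples, against 82.4, 81.1 and 82.7 CPM in scrambled samples. The groups overlapped, and the log2 fold change was 0.02 (SE 0.030, adjusted p = 0.763 in edgeR) with a 95% interval from -0.05 to 0.08. That interval leaves out falls of the size seen in ATF4.

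**Figure D2:**
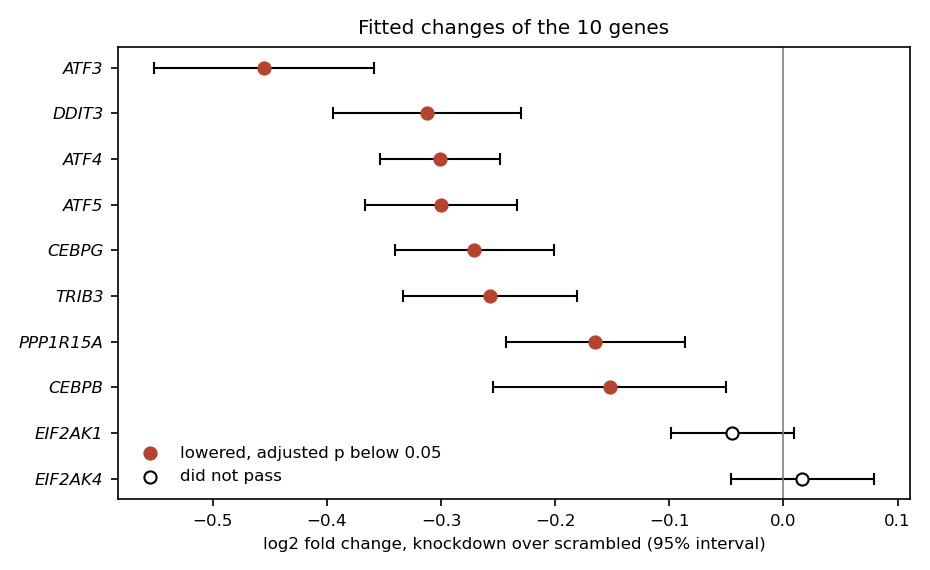
Log2 fold change of knockdown over scrambled for each gene, from the edgeR fit, with its 95% interval as a bar. Filled points passed at an adjusted p below 0.05 and open points did not. ATF3 is furthest left at -0.46, 5 genes lie between -0.31 and -0.26, PPP1R15A and CEBPB lie at -0.16 and -0.15, and the intervals of both kinase genes cover 0.

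The falls were modest in size. Tested against a change of 1.2-fold in edgeR, 1 of the 10 genes passed, ATF3 with adjusted p = 0.00522, where 0.242% of genes tested passed as lowered. ATF4, ATF5 and DDIT3 had an unadjusted p below 0.05 in that test but did not pass after adjustment. Of all genes called lowered in the test against no change, the median log2 fold change was -0.146, and 8 of the 10 genes lay below it. The closest of the 8 was CEBPB at -0.152, and 11.2% of all genes tested had a lower fold change than CEBPB. Over all genes 1175 were lowered and 1745 raised, and after GC correction 2613 were lowered and 2319 raised. After that correction 9 of the 10 genes passed as lowered, and with knockdown libraries 3_2 and 3_3 omitted 8 did.

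Per kilobase of annotated exon the order of levels was the same in knockdown and scrambled cells. ATF4 was highest at 101 CPM per kb in knockdown and 124 CPM per kb in scrambled cells. EIF2AK1 followed at 43.1 and 44.4 CPM per kb, then ATF5 at 32.0 and 39.4, PPP1R15A at 31.0 and 34.7, DDIT3 at 26.2 and 32.5, and TRIB3 at 20.9 and 24.9. The lowest were CEBPB at 14.5 and 16.1, CEBPG at 9.74 and 11.8, EIF2AK4 at 6.94 and 6.86 and ATF3 at 3.38 and 4.64 CPM per kb. Neighbours in this order were separate in every sample of a group, except ATF5 and PPP1R15A, which overlapped in knockdown samples, and PPP1R15A and DDIT3, which overlapped in scrambled samples. The lengths are unions of all annotated exons, so they overstate the length of the transcripts in use.

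GC content varied widely among the 10 genes and went with how they stood in knockdown libraries 3_2 and 3_3. CEBPB has the highest GC content at 66.2% and had 25.3 and 22.8 CPM in these libraries, against 26.5 to 31.3 CPM in the other 7 knockdown libraries. PPP1R15A, at 58.8% GC, had 88.8 and 83.6 CPM in them, against 95.2 to 102.2 CPM in the others. The kinase gene EIF2AK1, at 46.8% GC, ran the other way, with 250.0 and 247.1 CPM against 232.1 to 240.5 CPM. ATF3 and CEBPG, at 46.7% and 43.9% GC, stood at a mean log2 difference of 0.01 and 0.02 in these libraries. Without these libraries the log2 fold change was -0.46 for ATF3, -0.28 for CEBPG, -0.31 for DDIT3, -0.29 for ATF4, -0.27 for ATF5, -0.22 for TRIB3 and -0.13 for PPP1R15A, all of which passed.

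**Figure D3:**
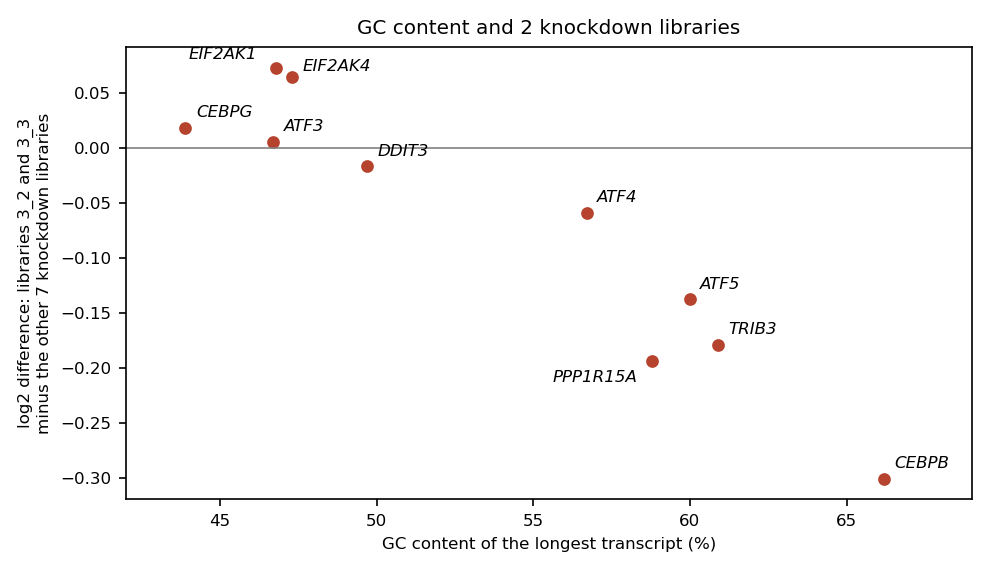
GC content of the longest transcript of each gene in percent (x axis) against the mean log2 CPM in knockdown libraries 3_2 and 3_3 minus that in the other 7 knockdown libraries (y axis). Each point is 1 gene. CEBPB, at 66.2% GC, lies lowest at -0.30, while EIF2AK1 and EIF2AK4, near 47% GC, lie at 0.07 and 0.06.

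Promoters were searched because most of the 10 genes fell together and the ATF4 partners are known to bind composite C/EBP-ATF elements. RefSeq (GRCh38.p14) gave promoters for 9 of the 10 genes, all but EIF2AK1, and the 250 bases before the start site were searched on both strands. A single start site was used for each gene, and any other start of the same gene was not searched. The ATF3 window, 212565157 to 212565406, lies at the annotated start of that long gene. The TRIB3 window, 381045 to 381294, lies inside the annotated gene. For ATF4, ATF5 and CEBPG all 250 bases of this window lie in GENCODE 29 exons, and for TRIB3 174 do. ATF3, DDIT3 and PPP1R15A have 73, 37 and 29 such bases, and CEBPB and EIF2AK4 have 0. TGATGNAAN, the C/EBP-ATF response element, matched in 1 of the 9, ATF3, in 3.13% of 35116 promoters, and in 5 of the 31 promoters found for the ATF4 target genes described below. TGACGTCA is the cyclic AMP response element that ATF and CREB factors bind. It matched in 1 of the 9, PPP1R15A, in 1.65% of promoters and in 0 of the 31 for ATF4 target genes. The endoplasmic reticulum stress element, CCAAT and CCACG set 9 letters apart, matched in 0 of the 9, in 0.074% of promoters and in 0 of the 31. The response elements known for these genes can lie outside this window. The part of each window upstream of any GENCODE 29 exon is shown for the 2 genes with a match and for EIF2AK4, a gene that did not pass, with matches in capitals.
ATF3, chr1:212565157-212565333, plus strand: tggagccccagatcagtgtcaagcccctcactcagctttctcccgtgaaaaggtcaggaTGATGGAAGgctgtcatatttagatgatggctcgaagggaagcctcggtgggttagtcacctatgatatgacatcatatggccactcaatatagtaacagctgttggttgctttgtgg
PPP1R15A, chr19:48872171-48872391, plus strand: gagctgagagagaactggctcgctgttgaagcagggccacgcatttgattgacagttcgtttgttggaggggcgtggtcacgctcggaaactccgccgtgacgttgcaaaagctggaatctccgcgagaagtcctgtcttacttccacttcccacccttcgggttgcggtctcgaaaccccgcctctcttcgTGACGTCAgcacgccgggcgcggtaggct
EIF2AK4, chr15:39933865-39934114, plus strand: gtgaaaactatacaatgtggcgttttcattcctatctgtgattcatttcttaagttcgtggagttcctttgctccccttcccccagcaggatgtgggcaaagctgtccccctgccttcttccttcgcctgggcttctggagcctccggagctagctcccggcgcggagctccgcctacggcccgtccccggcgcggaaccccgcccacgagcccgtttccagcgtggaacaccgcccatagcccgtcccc
The ATF3 match spans bases -191 to -183 and the PPP1R15A match bases -58 to -51, counted from the RefSeq start site. A match in letters is not a site of binding.

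The rest of the pathway was read from 5 lists of genes, also chosen with earlier results of these data known. Among 9 genes for the other kinases and for inputs to the kinases, 0 were lowered and 2 raised (22.2%), with a median log2 fold change of 0.01. Over all genes tested 7.49% were lowered and 11.1% raised. EIF2AK2, the kinase activated by double-stranded RNA, averaged 45.9 ± 1.35 CPM in knockdown and 39.5 ± 1.70 CPM in scrambled cells (SD, n = 3), a log2 fold change of 0.22 (SE 0.038, adjusted p = 0.00033 in edgeR). OMA1, the mitochondrial protease that relays stress toward EIF2AK1, averaged 18.8 ± 1.56 CPM in knockdown and 16.3 ± 0.282 CPM in scrambled cells, a log2 fold change of 0.20 (adjusted p = 0.0092 in edgeR, and 0.0589 from the first technical libraries alone). EIF2AK3, named to complete the 4 kinases, did not pass at 23.1 ± 1.11 CPM in knockdown and 23.8 ± 0.500 CPM in scrambled cells. Of the 4 kinase genes 1 thus rose and 3 did not pass. Lowered genes of this list also numbered 0 by DESeq2 and 0 at an unadjusted p below 0.05, and 1 after GC correction.

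Genes for eIF2 itself, its exchange factor eIF2B and the phosphatase held 1 lowered (7.14%) and 0 raised of 14, with a median of -0.02. That share of lowered genes is near the 7.49% over all genes tested. The lowered gene was PPP1R15B, the constitutive counterpart of PPP1R15A, at 141.6 ± 3.36 CPM in knockdown and 153.9 ± 3.85 CPM in scrambled cells (SD, n = 3), a log2 fold change of -0.12 (adjusted p = 0.00661 by edgeR), and it no longer passed when scrambled replicate 3 was omitted (0.0699). Raised genes numbered 0 by DESeq2 and at an unadjusted p below 0.05 as well. Lowered genes numbered 3 by DESeq2, 6 after GC correction and 6 when knockdown libraries 3_2 and 3_3 were omitted, the last with 1 raised. Over all genes, lowered calls rose too, from 1175 to 2613 after GC correction and to 2426 without those libraries. With knockdown replicate 3 omitted 5 were lowered and 2 raised, with knockdown replicate 1 omitted 2 were lowered, and with scrambled replicate 3 omitted 0 were.

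Known ATF4 target genes outside the 10 had the highest share of lowered genes among the 5 lists. Of 39 tested, 28 were lowered (71.8%) and 1 raised (2.56%), against 7.49% and 11.1% of all genes tested, with a median of -0.16. DDIT4, an inhibitor of mTORC1, averaged 104.8 ± 4.77 CPM in knockdown and 159.3 ± 1.12 CPM in scrambled cells (SD, n = 3), a log2 fold change of -0.60 (SE 0.032, adjusted p = 6.21e-12 in edgeR) that exceeded those of all 10 factors and kinases in size. SLC3A2, which encodes a transporter heavy chain, lay at -0.29 (SE 0.028) and ASNS, asparagine synthetase, at -0.30 (SE 0.032), on the log2 scale, and both were lowered (adjusted p = 1.68e-07 and 6.3e-07 in edgeR). The raised gene was CEBPD, named after its values were seen, a C/EBP factor at 4.05 ± 0.253 CPM in knockdown and 3.30 ± 0.0767 CPM in scrambled cells, with a log2 fold change of 0.30 (adjusted p = 0.0158 in edgeR) that did not pass by DESeq2 (adjusted p = 0.0514). CEBPD also did not pass without knockdown replicate 1, scrambled replicate 1 or scrambled replicate 3 (adjusted p = 0.088, 0.0534 and 0.0625), or from the first technical libraries alone (0.175). Over the settings other than the 1.2-fold test, 24 to 32 of this list were lowered and 0 to 3 raised, the 3 being with knockdown replicate 3 omitted and with knockdown libraries 3_2 and 3_3 omitted.

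The ATF6 and XBP1 arm of the unfolded protein response, which shares the endoplasmic reticulum with EIF2AK3 but acts without eIF2alpha, was mixed. Of 21 genes 3 were lowered (14.3%) and 4 raised (19%), with a median of 0.04. The shares among all genes tested were 7.49% lowered and 11.1% raised. EDEM1, which draws misfolded glycoproteins into degradation, was lowered at -0.16 (SE 0.031, adjusted p = 0.000697 in edgeR), as was ERN1, the stress sensor IRE1, at -0.17 (adjusted p = 0.00772 by edgeR, or 0.0819 with scrambled replicate 1 omitted). SDF2L1, a chaperone cofactor, was raised at 0.14 (adjusted p = 0.0113 by edgeR, or 0.0915 and 0.0903 with knockdown replicate 2 or scrambled replicate 3 omitted). After GC correction 4 of this list passed as lowered and 9 as raised, and omitting knockdown libraries 3_2 and 3_3 left 4 and 7. Over all genes, raised calls rose too, from 1745 to 2319 and 2589 in these settings, and lowered calls from 1175 to 2613 and 2426. Both counts of this list turned on single replicates. Raised genes numbered 1, 1 and 7 with knockdown replicate 1, 2 or 3 omitted and 2, 1 and 0 with scrambled replicate 1, 2 or 3 omitted, and lowered genes 2, 2 and 4 and then 1, 2 and 2.

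Other bZIP factors and Tribbles genes held 3 lowered (8.57%) and 2 raised (5.71%) of 35, with a median of -0.05. The share of lowered genes is near the 7.49% over all genes tested, of which 11.1% were raised. CEBPD, described above, is counted in this list too. JUN, a subunit of AP-1, averaged 45.1 ± 1.22 CPM in knockdown and 55.3 ± 0.0886 CPM in scrambled cells (SD, n = 3), a log2 fold change of -0.29 (SE 0.034, adjusted p = 2.05e-06 in edgeR). FOSL2, another AP-1 subunit, had a log2 fold change of -0.33 (adjusted p = 0.000436, and 0.0763 from the first technical libraries alone). BATF2, an interferon-inducible bZIP factor, was higher at 3.77 ± 0.250 CPM in knockdown and 2.34 ± 0.210 CPM in scrambled cells, a log2 fold change of 0.69 (SE 0.098, adjusted p = 2.83e-05 in edgeR). After GC correction 12 of them passed as lowered and 4 as raised, and omitting knockdown libraries 3_2 and 3_3 left 11 and 5. Over all genes, lowered calls rose too, from 1175 to 2613 and 2426 in these settings, and raised calls from 1745 to 2319 and 2589. Single replicates moved the counts of this list too. Raised genes numbered 1, 2 and 5 with knockdown replicate 1, 2 or 3 omitted, 1, 2 and 1 with scrambled replicate 1, 2 or 3 omitted and 1 by DESeq2, and lowered genes 4, 2 and 9, then 2, 2 and 3, and 4 by DESeq2.

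**Figure D4:**
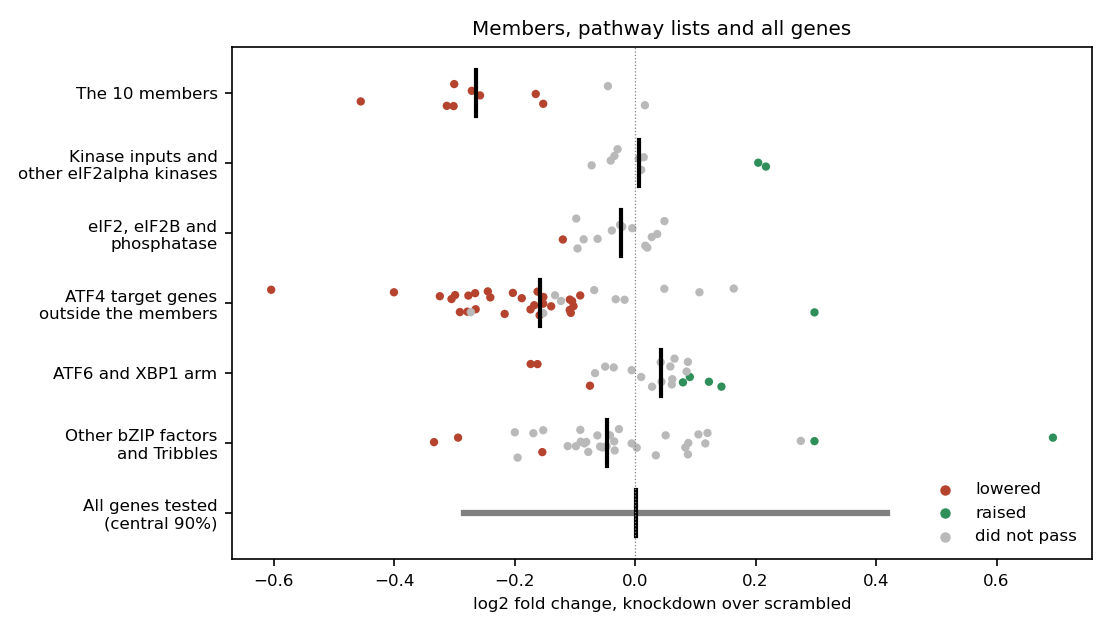
Log2 fold change of knockdown over scrambled for every tested gene of the 10 members and of the 5 pathway lists, with the median of each list as a black bar. Colours mark genes lowered, raised or not passing at an adjusted p below 0.05, and the grey line spans the central 90% of all genes tested. The medians are -0.26 for the 10 genes, 0.01 for kinase inputs, -0.02 for eIF2 and its partners, -0.16 for ATF4 targets, 0.04 for the ATF6 and XBP1 arm and -0.05 for other bZIP factors.

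Within groups, pairs of the 10 genes varied between libraries with correlations of either sign. The libraries are 3 repeat libraries of each of 6 samples, so these correlations include variation from library preparation. After each group mean was subtracted, Pearson correlations of log2 CPM over the 18 libraries ran from -0.757 to 0.799 over the 45 pairs, with a median near 0. The highest was between ATF5 and PPP1R15A and the lowest between CEBPB and EIF2AK1. ATF4 had correlations of 0.787 with CEBPB, 0.62 with ATF5, 0.618 with PPP1R15A, 0.023 with ATF3 and -0.333 with CEBPG. The genes most like ATF4 by this measure, among 10480 with a mean of at least 5 CPM, were R3HDM4 (0.908), SLC7A5P2 (0.895), POLR2A (0.886), C20orf27 (0.882) and TELO2 (0.863). These 5 have GC contents of 56.1% to 69.2%, ATF4 has 56.7%, and some libraries deviated with GC content. The part of GC content in these correlations was not tested. None of the 5 passed between groups by edgeR, where POLR2A alone of them was separate between groups and POLR2A and SLC7A5P2 had an unadjusted p below 0.05.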

How the data were processed

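RNA was measured in 18 K562 libraries, depleted of ribosomal RNA and prepared directionally, per the labels' protocols. The counts the authors deposited are whole numbers for each gene symbol, without normalization. Per the submitters' processing notes, Trim Galore, STAR and featureCounts were used on GRCh38, with no version, annotation or strand setting given in the sources read. Groups came from the titles, and the 3 technical libraries of each replicate were summed by the first number in the name.

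Summed counts were filtered with filterByExpr, scaled by TMM and fitted by the robust quasi-likelihood method of edgeR 4.0.16 under R 4.3.3, and p-values were Benjamini-Hochberg adjusted over 15678 genes. CPM values used TMM-scaled library sizes, and errors are SDs over summed replicates. Interval bounds came from the fit's SE. The 20 alternatives were DESeq2 1.42.0, other scalings and filters, a replicate block, other treatments of technical libraries, omitted libraries, a lowess GC correction (span 0.3, GC known for 96.4% of genes) and a test against 1.2-fold. Positions, lengths and GC content came from GENCODE 29. The procedure was tested on simulated data.

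The 10 genes, the 5 lists and some alternatives were chosen with earlier results of these data known. Named genes were the 10 members, PCMTD1, up to 3 called genes per list by smallest p, and the 5 closest correlates of ATF4 over libraries. Genes named outside this rule are marked as such, or are markers of cell type or genes that overlap a member.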

Additional observations from a re-analysis of the deposited data

Results flagged for a closer look

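Library 3_2 of the knockdown group stood apart for EIF2AK4. It had 87.9 CPM, while the other 8 knockdown libraries lay between 80.7 and 84.0 CPM, so the gap to the nearest library was 0.55 of the whole range, above Dixon's critical value for 9 libraries. The same library deviated with GC content, and EIF2AK4 has a GC content of 47.3%. The part of this deviation in the value was not tested. It was the only flag in 20 groups of 9 libraries, and chance flags about 1 in 20 groups.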

How the results depend on the processing

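The count of lowered genes among the 10 was 6 to 9 under every alternative except the test against 1.2-fold, where it was 1, and the count of raised genes was 0 under all 20. Log2 fold changes kept their sign for all 10 genes under all 20, ranging from -0.31 to -0.29 for ATF4, from -0.47 to -0.44 for ATF3 and from -0.20 to -0.09 for CEBPB. ATF4, ATF3, ATF5, DDIT3, CEBPG and TRIB3 passed in all 19 settings other than the 1.2-fold test, PPP1R15A in 18, CEBPB in 16, EIF2AK1 in 6 and EIF2AK4 in 0. Over all genes, lowered calls numbered 2036 with libraries entered singly, 2389 summed by the second number, 2426 without knockdown libraries 3_2 and 3_3, 2613 with GC correction, 38 in the 1.2-fold test and 623 to 2280 without a single replicate. Raised calls numbered 2589 summed by the second number, 2589 without knockdown libraries 3_2 and 3_3 and 2319 with GC correction. They numbered 157 in the 1.2-fold test and 1127 to 2482 without a single replicate. In the fit used above 1175 genes were lowered and 1745 raised. Of the 113 genes tested in the other lists 43 were called, 35 lowered (31.0%) and 8 raised (7.08%). Over all genes tested 7.49% were lowered and 11.1% raised. Called genes of these lists numbered 67 summed by the second number, 66 without knockdown libraries 3_2 and 3_3 and 69 with GC correction. In the 1.2-fold test they numbered 2. The cause of these shifts in counts was not tested.

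Correlations between same-numbered samples of the 2 groups were 0.03, 0.011 and 0.011, and not every sample correlated best with its own number. Correlations this small cannot tell whether replicate numbers pair the groups. With the replicate block 8 of the 10 genes were lowered. Over all genes 1772 were then lowered and 2213 raised, against 1175 and 1745 without the block. With GC correction beside the block 9 of the 10 genes were lowered, with 69 calls in the other lists. Over all genes 2628 were lowered and 2315 raised in that setting. The lowest count behind any sample of the 10 genes was 888, for ATF3.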

Other observations

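Some genes of the ATF4 target list stayed near their scrambled level, and are named here after their values were seen. ALDH18A1, the entry enzyme of proline synthesis, had a log2 fold change of 0.05 (SE 0.032). PSPH, the last enzyme of serine synthesis, had a log2 fold change of -0.02 (SE 0.039), beside -0.28 for PHGDH and -0.28 for PSAT1, the enzymes before it. CBS, of the transsulfuration pathway, stood at -0.03 (SE 0.028), while CTH, the enzyme after it, stood at -0.30 (SE 0.049). ALDH18A1, PSPH and CBS did not pass in edgeR, and PHGDH, PSAT1 and CTH did. CBS and ALDH18A1 each passed in 2 of the other 19 settings, and PSPH in 0. Whether the members of each pair differ from one another was not tested.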
